A study of Mus musculus with 6 samples.

Results

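The genes that carry glucose through the brain were examined in mice made epileptic with kainic acid: the glucose transporters, the enzymes of glycolysis, glycogen turnover and the pentose phosphate pathway. They were chosen by symbol, 35 symbols in all, and every identifier that maps to them was kept. All 35 were found in the table, as 36 of its 36079 gene entries, because Aldoa has 2 identifiers. The data are bulk RNA-seq of temporal lobe tissue, with 1 library from each of 3 kainic acid-treated mice fed a ketogenic diet and 3 kainic acid-treated mice fed chow, for 3 weeks in both cases. A ketogenic diet is rich in fat and poor in carbohydrate and raises circulating ketone bodies, and kainic acid is a glutamate receptor agonist that provokes seizures. All mice of both groups had received kainic acid, so the comparison is of diet within the epileptic brain. The labels state neither strain nor sex nor age, and themselves name the tissue only as brain.

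Neurons and glia take up glucose through facilitative transporters, trap it by phosphorylation and split it to pyruvate, which either enters the mitochondria or is reduced to lactate. Astrocytes keep the small glycogen store of the brain, and the pentose phosphate pathway draws on glucose 6-phosphate to make NADPH and ribose 5-phosphate. Most steps are catalysed by several isozymes encoded by separate genes, whose mixture differs between cell types and brain regions. On a ketogenic diet ketone bodies replace part of the glucose as fuel of the brain.

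Expression was deposited as FPKM, a unit that divides by gene length and by depth, so levels can be set side by side between genes. Libraries held 39927217 to 55910355 recovered reads, and a tested member had 50 to 71118 reads per library, with a median of 6596. Differences were tested with limma on log2(FPKM + 0.5) over the 16009 genes whose mean reached 0.5 FPKM, and 35 of the 36 member entries were among them. Every marker of excitatory neurons, astrocytes and oligodendrocytes that was looked up was read in every library. The libraries differed in the markers of brain regions. In chow replicate 1 the 10 thalamic markers summed to 496 FPKM, against 28.1 to 101 FPKM in the other 5 libraries, and the 8 excitatory neuron markers to 408 FPKM, against 855 to 1573 FPKM. The 8 oligodendrocyte markers summed to 2299 FPKM there, against 667 to 1530 FPKM, and the 8 astrocyte markers to 509 FPKM, against 384 to 467 FPKM. The astrocyte markers were not uniform there. Aqp4, Aldh1l1, Gja1, S100b and Slc4a4 had their highest value in that library, Slc1a3 (45.9 FPKM) and Slc1a2 (166 FPKM) their lowest, and Gfap neither. In a bulk sample fewer cells of a type and less RNA per cell cannot be told apart. Other markers divided the libraries in other ways. The 8 choroid plexus markers summed to 4.37, 4.09 and 1108 FPKM in the ketogenic libraries and 861, 8.23 and 1935 FPKM in the chow libraries, and the 8 striatal markers to 54.1, 801 and 279 FPKM in the ketogenic libraries and 46.3, 1013 and 72.9 FPKM in the chow libraries. Each of these lists had both low and high libraries in both diets. The 7 red blood cell markers did separate the diets, with sums of 4.07, 3.28 and 4.46 FPKM in the ketogenic libraries and 12.9, 18.5 and 35.3 FPKM in the chow libraries, and the 4 of them that were tested had a median log2 change of -1.80. The part of these markers in the values of the members was not tested beyond adjusting the fit, in turn, for thalamic markers (median log2 change of the members 0.05), striatal markers (-0.03) and choroid plexus markers (-0.03).

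No difference between the diets passed the test in these genes. None of the 35 tested entries passed at an adjusted p under 0.05 in limma, the smallest adjusted p being 0.752, and none of the 16009 genes passed (0% called). At an unadjusted p under 0.05 there were 2 of the 35 entries, the second Aldoa entry with a positive log2 change (2.06% of all genes tested were on that side) and Ugp2 with a negative one (3.32%). Both make up 5.71% of the entries, against 5.38% of all genes tested. Groups did not overlap in 5 entries, 14.3% against 12.4% of all genes tested. Of these, 3 were higher on the ketogenic diet (4.9% of all genes tested were) and 2 lower (7.49%). The median log2 change of the entries, ketogenic minus chow, was -0.04, and that of all genes tested was -0.04. Log2 changes were positive in 14 and negative in 21 entries (60% negative, against 56.9% of all genes tested). They were positive in 22 and negative in 13 after centring each library on its median, so the balance of directions depends on scaling. Among all genes at an unadjusted p under 0.05 the higher ones made up 38.2%, and 49.6% and 56.4% after quantile normalization and centring. limma's voom on recovered reads also called none, with 861 genes at an unadjusted p under 0.05 in the FPKM test and 391 higher and 470 lower by voom. The 95% interval of the change lay within a 2-fold difference in both directions for 30 of the 35 entries. The other 5 were Gapdh, Pygm, Gbe1, Ldha and the second Aldoa entry. In 31 of the 35 entries leaving out some 1 library moved the log2 change by over 1.5 times, and in 14 it turned the sign. The 4 exceptions were the second Aldoa entry, Ugp2, Phkb and Taldo1. A change near 0 passes such a ratio easily, and the same count was not made over all genes. Set against the standard error, the most entries that moved by over 1 SE were 6, without chow replicate 1.

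**Figure D1:**
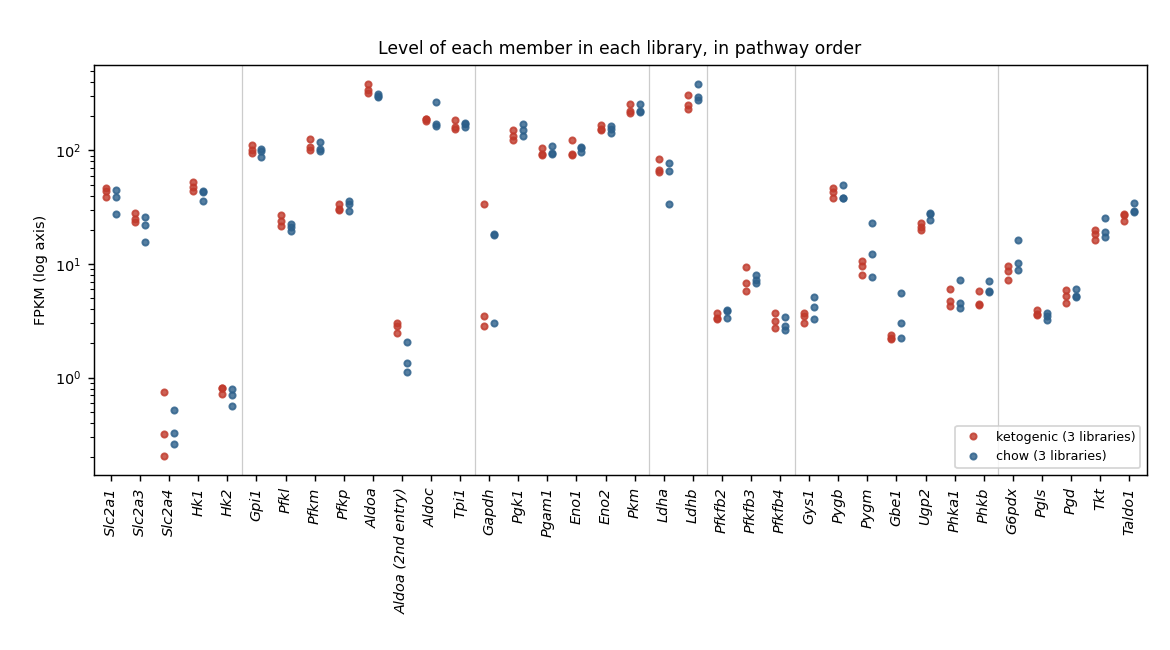
FPKM of each of the 36 entries (log axis) in the 3 ketogenic libraries (red, left of each pair) and the 3 chow libraries (blue, right), ordered by place in the pathway with grey lines between groups of genes. Aldoa, Ldhb and Pkm lie highest, Slc2a4 and Hk2 lowest, and Gapdh spreads from 2.84 to 34.0 FPKM.

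Many of these genes were among the most highly expressed in the tissue. The median entry stood at the 88.5th percentile of level among the genes tested, and 17 of the 35 were in the top 10%. Within each family of isozymes the order of the mean levels was the same in both diets.

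The glucose transporters and hexokinases come at the head of the pathway. Slc2a1 encodes GLUT1, the transporter of the blood-brain barrier and of astrocytes. It measured 39.0, 46.6 and 43.8 FPKM in the ketogenic libraries and 44.6, 38.7 and 27.7 FPKM in the chow libraries. The groups overlapped, and chow replicate 3 was the lowest. Its log2 change was 0.24 ± 0.19 (SE, n = 3 each), with a 95% interval from -0.20 to 0.69. It was 0.05 without chow replicate 3 and 0.39 without chow replicate 1. Endothelial markers summed to 47.6 to 55.7 FPKM on the ketogenic diet and 53.2 to 66.2 FPKM on chow, and all 8 were read in every library. All 8 had a negative log2 change, with a median of -0.28. Their part in the Slc2a1 value was not tested. Slc2a3 encodes GLUT3, the high-affinity transporter of neurons. It measured 23.6, 25.1 and 28.2 FPKM in ketogenic-fed mice, against 15.6, 25.7 and 22.2 FPKM in chow-fed mice. The lowest value was that of chow replicate 1, the library poorest in excitatory neuron markers, and the log2 change of 0.30 was 0.10 without that library. Slc2a4 encodes the insulin-responsive GLUT4. It measured only 0.204, 0.320 and 0.738 FPKM in ketogenic-fed mice, against 0.516, 0.324 and 0.257 FPKM in chow-fed mice, on 18 to 57 reads per library. It lay under the level required for the test, and in a fit without that filter its log2 change was 0.06, with a 95% interval from -0.55 to 0.66.

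Hk1 encodes the constitutive brain hexokinase, which sits on the outer mitochondrial membrane. It measured 47.9, 52.1 and 44.3 FPKM in the ketogenic libraries and 36.2, 43.7 and 43.4 FPKM in the chow libraries. Every ketogenic value lay above every chow value, but ketogenic replicate 3 exceeded chow replicate 2 by little. The log2 change was 0.23 ± 0.12 (SE), with a limma adjusted p of 0.752. It was 0.14 without chow replicate 1, and 0.07 after adjustment for the thalamic markers. Hk2, the inducible hexokinase of muscle and fat, averaged 0.778 ± 0.0556 FPKM in ketogenic-fed mice, against 0.683 ± 0.117 FPKM in chow-fed mice (SD, n = 3 each) and made up 1.60% ± 0.176 of the summed hexokinase FPKM on the ketogenic diet and 1.65% ± 0.334 on chow.

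In upper glycolysis, from the isomerase to triose phosphate, 5 of 8 entries had a positive and 3 a negative log2 change, with a median of 0.07. Gpi1, the isomerase that follows hexokinase, averaged 102 ± 8.47 FPKM in ketogenic-fed mice, against 96.6 ± 7.75 FPKM in chow-fed mice (SD, n = 3 each). Phosphofructokinase, the committing step, is assembled from the muscle, platelet and liver types of subunit. The muscle type Pfkm was the most abundant, with 66.6% ± 1.29 of their summed FPKM on the ketogenic diet and 66.4% ± 3.55 on chow. The platelet type Pfkp averaged 31.5 FPKM in ketogenic-fed mice, against 32.7 FPKM in chow-fed mice. The liver type Pfkl averaged 24.2 FPKM in ketogenic-fed mice, against 21.0 FPKM in chow-fed mice. Their log2 changes were 0.06 for Pfkm, -0.05 for Pfkp and 0.20 for Pfkl, and the diets overlapped in each. Tpi1, which interconverts the triose phosphates, averaged 167 ± 14.8 FPKM in ketogenic-fed mice, against 168 ± 8.03 FPKM in chow-fed mice. Its log2 change was -0.02, with a 95% interval from -0.27 to 0.24.

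Aldolase splits fructose 1,6-bisphosphate. Aldoa (ENSMUSG00000030695), the broadly expressed isozyme, was the most abundant of all 36 entries. It measured 343, 387 and 318 FPKM in the ketogenic libraries and 299.5, 316 and 295 FPKM in the chow libraries. The groups did not overlap, with ketogenic replicate 3 close above chow replicate 2. The log2 change was 0.20 ± 0.11 (SE), and 0.12 without ketogenic replicate 2. The second Aldoa entry (ENSMUSG00000114515) lies next to it on the same strand, upstream, in the GENCODE M21 annotation. It measured 2.44, 3.01 and 2.82 FPKM in the ketogenic libraries and 1.12, 1.34 and 2.05 FPKM in the chow libraries, on 50 to 110 reads per library. All 3 ketogenic values were above all 3 chow values, with a log2 change of 0.72 ± 0.20 (SE), an unadjusted p of 0.00883 and an adjusted p of 0.752 in limma. Reads of these adjoining entries could be split between them by the counting, so this value is uncertain. Aldoc, the isozyme of astrocytes and Purkinje cells, measured 183, 187 and 187 FPKM in ketogenic-fed mice, against 267, 164 and 172 FPKM in chow-fed mice. Only chow replicate 1 stood apart, on the high side, and the log2 change of -0.08 was 0.14 without it.

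In lower glycolysis 1 of 6 entries had a positive and 5 a negative log2 change, with a median of -0.03. Pgk1, the first of the enzymes that yield ATP, measured 133, 152 and 123 FPKM in ketogenic-fed mice, against 170.3, 135 and 151 FPKM in chow-fed mice, and its log2 change was -0.16 ± 0.13 (SE), or -0.08 without chow replicate 1. The groups overlapped. Pgam1, the mutase, averaged 96.3 ± 6.93 FPKM in ketogenic-fed mice, against 99.0 ± 8.18 FPKM in chow-fed mice (SD, n = 3 each). Enolase has a ubiquitous form, Eno1, and a neuronal form, Eno2. Eno1 averaged 103 ± 17.8 FPKM in ketogenic-fed mice, against 103 ± 5.33 FPKM in chow-fed mice, and Eno2 averaged 158 ± 8.98 FPKM in ketogenic-fed mice, against 154 ± 11.6 FPKM in chow-fed mice. Their log2 changes were -0.02 and 0.04. Pkm, pyruvate kinase, averaged 231 ± 21.9 FPKM in ketogenic-fed mice, against 232 ± 20.0 FPKM in chow-fed mice. Its log2 change was -0.01, with a 95% interval from -0.30 to 0.28. The table does not separate the splice forms of Pkm.

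Gapdh, a dehydrogenase often used as a reference gene, stood out from its neighbours in the pathway. It measured 3.51, 34.0 and 2.84 FPKM in the ketogenic libraries and 18.0, 18.2 and 3.04 FPKM in the chow libraries. Each diet had both low and high values, whereas no other entry with a mean above 1 FPKM had a highest value over 2.97 times its lowest. The mouse genome carries many processed copies of Gapdh. A search of the GENCODE M21 transcripts found 177 other genes that match a Gapdh transcript at 90% identity or more over at least 300 bases, of which 123 are in the table and 103 had reads. Their summed level was 26.4, 28.9 and 24.4 FPKM in the ketogenic libraries and 31.0, 27.6 and 22.6 FPKM in the chow libraries, above Gapdh itself in 5 of 6 libraries. Not all of these matches are processed copies. The sum includes the gene Peli2, matched through a processed transcript, at 2.20 to 4.27 FPKM, so its own expression is counted there. Reads may be shared with the matching genes, so the Gapdh value is uncertain. Gapdh was kept in the counts and medians of the entries, and its own value was not read as a measure of glycolysis. What part the copies had in the uneven values was not tested. In 14 of the 36 entries at least 1 such match was in the table. For Eno1 the matches summed to 10.8% of its own level, mostly the near-identical Eno1b, and for Pfkp to 25.5%, from the gene Pitrm1, with which it shares transcript sequence. In each of the other 11 they came to 4.55% or less.

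**Figure D2:**
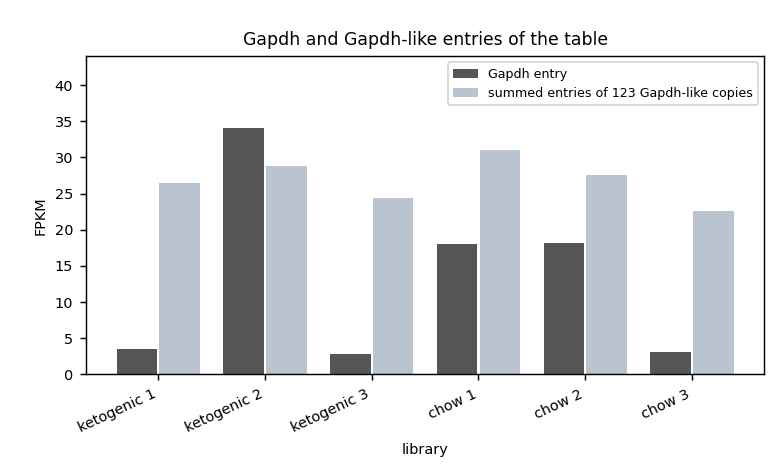
FPKM of the Gapdh entry (dark bars) and the summed FPKM of 123 Gapdh-like entries (light bars) in each library, ketogenic left and chow right. The summed entries, Peli2 included, stay between 22.6 and 31.0 FPKM, while Gapdh ranges from 2.84 to 34.0 FPKM.

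Lactate dehydrogenase interconverts pyruvate and lactate and is a tetramer of A and B subunits. Ldha, the subunit of glycolytic tissue, measured 64.2, 83.4 and 67.1 FPKM in the ketogenic libraries and 33.5, 77.3 and 65.9 FPKM in the chow libraries. Ldhb, the subunit of oxidative tissue, measured 253, 306 and 229.8 FPKM in ketogenic-fed mice, against 383, 280.4 and 295 FPKM in chow-fed mice. Chow replicate 1 was at once the lowest for Ldha and the highest for Ldhb, and the groups overlapped in both. The log2 changes were 0.36 for Ldha, with a 95% interval from -0.40 to 1.11, and -0.28 for Ldhb, with an interval from -0.69 to 0.13. Without chow replicate 1 they were -0.0048 and -0.14. Ldha thus made up 20.2%, 21.4% and 22.6% of the summed FPKM of the pair in the ketogenic libraries and 8.04%, 21.6% and 18.3% in the chow libraries.

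The promoters of this pair are shown because Ldha was lowest and Ldhb highest in the same library. Those of Aldoc and Pygm were added by choice as examples of genes that also stood apart there. Gbe1, G6pdx and Tkt were high in that library as well and are not shown. Capitals mark ACGTG on either strand, a form of the core that hypoxia-inducible factors recognise. Its other form, GCGTG, was neither counted nor marked. Each line runs 5′ to 3′ on the gene's strand, from 250 bases before to 50 bases after a transcription start, from RefSeq on GRCm38.p6. The windows are chr7:46845554-46845853 (plus strand) for Ldha, chr6:142507908-142508207 (minus strand) for Ldhb, chr11:78322823-78323122 (plus strand) for Aldoc and chr19:6384158-6384457 (plus strand) for Pygm, the first listed for each gene.
Ldha: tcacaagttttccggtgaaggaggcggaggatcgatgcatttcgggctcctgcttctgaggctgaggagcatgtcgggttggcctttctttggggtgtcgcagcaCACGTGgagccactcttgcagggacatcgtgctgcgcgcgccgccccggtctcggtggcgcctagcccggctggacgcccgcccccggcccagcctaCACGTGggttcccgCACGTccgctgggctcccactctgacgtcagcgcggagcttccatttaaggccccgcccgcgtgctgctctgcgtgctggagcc
Ldhb: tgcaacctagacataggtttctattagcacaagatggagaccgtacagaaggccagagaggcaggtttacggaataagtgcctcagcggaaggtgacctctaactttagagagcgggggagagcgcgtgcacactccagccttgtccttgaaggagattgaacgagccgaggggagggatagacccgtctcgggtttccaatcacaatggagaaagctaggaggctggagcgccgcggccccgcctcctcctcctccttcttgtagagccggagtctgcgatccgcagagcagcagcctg
Aldoc: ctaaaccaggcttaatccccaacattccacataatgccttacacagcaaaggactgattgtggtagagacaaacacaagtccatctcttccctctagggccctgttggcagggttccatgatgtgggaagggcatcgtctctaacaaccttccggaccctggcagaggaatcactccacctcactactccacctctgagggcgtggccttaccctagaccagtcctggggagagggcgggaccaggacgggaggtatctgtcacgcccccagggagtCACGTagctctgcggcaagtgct
Pygm: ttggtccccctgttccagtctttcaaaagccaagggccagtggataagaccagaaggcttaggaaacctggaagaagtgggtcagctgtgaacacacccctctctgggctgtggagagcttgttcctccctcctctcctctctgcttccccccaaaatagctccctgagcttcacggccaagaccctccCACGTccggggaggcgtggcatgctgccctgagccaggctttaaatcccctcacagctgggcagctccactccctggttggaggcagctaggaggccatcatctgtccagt

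The Ldha window held 3 stretches of ACGTG, 2 of them within the palindrome CACGTG, the Aldoc and Pygm windows 1 each, and the Ldhb window 0. GCGTG, left unmarked, also occurs in each of these windows, that of Ldhb included. The first listed windows of Gbe1, G6pdx and Tkt, which are not shown, held 0, 1 and 0 matches to ACGTG. Windows were listed for 33 of the 35 symbols, all but Slc2a3 and Slc2a4. Of the first listed windows of these genes 14 of 33 held ACGTG, 42.4% against 19.7% of the first windows of all 27025 symbols. The GC box GGGCGG, searched on both strands, was in 24 of 33 (72.7% against 35.9%), and CACGTG, which contains ACGTG, in 3 of 33 (9.09% against 7.24%). A match in a window is a description of its letters only.

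The bifunctional PFKFB enzymes set the level of fructose 2,6-bisphosphate, the strongest activator of phosphofructokinase. Pfkfb3, the isozyme with the highest kinase activity, measured 9.37, 6.75 and 5.74 FPKM in ketogenic-fed mice, against 7.19, 6.85 and 8.06 FPKM in chow-fed mice. The ketogenic mice held both its highest and its lowest value. Pfkfb2 averaged 3.45 ± 0.231 FPKM in ketogenic-fed mice, against 3.71 ± 0.317 FPKM in chow-fed mice, and Pfkfb4 averaged 3.21 ± 0.495 FPKM in ketogenic-fed mice, against 2.95 ± 0.391 FPKM in chow-fed mice (SD, n = 3 each). The log2 changes of the 3 genes ran from -0.09 to 0.10.

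Of the 7 glycogen genes 6 had a negative log2 change on the ketogenic diet (56.9% of all genes tested did), with a median of -0.31 against -0.04 over all genes tested. Pygb was the exception. Of the 7 genes 6 were highest in chow replicate 1, and Ugp2 was highest in chow replicate 2. Ugp2 makes UDP-glucose, the glucose donor of glycogen. It measured 21.1, 19.8 and 23.0 FPKM in the ketogenic libraries and 27.7, 28.1 and 24.2 FPKM in the chow libraries. All 3 ketogenic values lay below all 3 chow values. The log2 change was -0.31 ± 0.11 (SE), with an unadjusted p of 0.0235 and an adjusted p of 0.752 in limma, and it was -0.29 both without chow replicate 1 and after adjustment for the thalamic markers. Gys1, the glycogen synthase of brain and muscle, measured 3.47, 3.73 and 3.04 FPKM in ketogenic-fed mice, against 5.17, 3.27 and 4.20 FPKM in chow-fed mice, and its log2 change was -0.25, or -0.11 without chow replicate 1. Gbe1, the branching enzyme, measured 2.20, 2.22 and 2.38 FPKM in ketogenic-fed mice, against 5.54, 2.24 and 3.02 FPKM in chow-fed mice. Its ketogenic values had an SD of 0.0987 FPKM, and chow replicate 1 was far above every other library. The log2 change of -0.49 became -0.17 without that library.

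Glycogen is broken down by phosphorylase, of which Pygb is the brain and Pygm the muscle isozyme. Pygm is also known from astrocytes. Pygb measured 43.1, 37.8 and 46.5 FPKM in ketogenic-fed mice, against 49.4, 38.0 and 38.2 FPKM in chow-fed mice. Pygm measured 7.92, 9.67 and 10.7 FPKM in ketogenic-fed mice, against 22.8, 7.67 and 12.2 FPKM in chow-fed mice. Chow replicate 1 held more than any other library of Pygm, and the log2 change of -0.45 (95% limits -1.33 and 0.44) was -0.05 without it. The 14 heart and skeletal muscle markers summed to 14.1, 16.2 and 24.0 FPKM in the ketogenic libraries and 53.9, 29.5 and 37.0 FPKM in the chow libraries. Every ketogenic sum lay below every chow sum, and the highest was in the same library as Pygm. None of these markers was at 0 in any library. Their part in the Pygm value was not tested. Phosphorylase kinase activates phosphorylase. Its subunit gene Phka1 averaged 4.98 ± 0.896 FPKM in ketogenic-fed mice, against 5.29 ± 1.66 FPKM in chow-fed mice (SD, n = 3 each), with a log2 change of -0.05. Phkb averaged 4.86 ± 0.809 FPKM in ketogenic-fed mice, against 6.14 ± 0.792 FPKM in chow-fed mice, with a log2 change of -0.31. That of Phkb was -0.14 after adjustment for the thalamic markers. The median of the 7 glycogen genes was -0.11 without chow replicate 1 and 0.05 after adjustment for the thalamic markers.

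In the pentose phosphate pathway 4 of 5 genes had a negative log2 change (56.9% of all genes tested did), with a median of -0.16. G6pdx encodes the enzyme that commits glucose 6-phosphate to this pathway. It measured 7.22, 8.66 and 9.54 FPKM in the ketogenic libraries and 16.1, 10.2 and 8.81 FPKM in the chow libraries. Chow replicate 1 was again the highest, and the log2 change of -0.41 was -0.16 without it. Pgls and Pgd carry out the next steps of the oxidative branch. Pgls averaged 3.71 ± 0.174 FPKM in ketogenic-fed mice, against 3.45 ± 0.266 FPKM in chow-fed mice, and Pgd averaged 5.24 ± 0.657 FPKM in ketogenic-fed mice, against 5.43 ± 0.516 FPKM in chow-fed mice (SD, n = 3 each). In the branch that returns carbon to glycolysis, Taldo1, transaldolase, measured 23.7, 26.7 and 27.7 FPKM in ketogenic-fed mice, against 34.2, 28.8 and 29.2 FPKM in chow-fed mice. The groups did not overlap, and the log2 change was -0.23 ± 0.11 (SE), -0.15 without chow replicate 1 and -0.11 after adjustment for the thalamic markers. Tkt, transketolase, measured 16.1, 18.3 and 20.0 FPKM in ketogenic-fed mice, against 25.6, 17.2 and 19.0 FPKM in chow-fed mice, with overlapping groups. Its log2 change of -0.16 was -0.00012 without chow replicate 1.

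**Figure D3:**
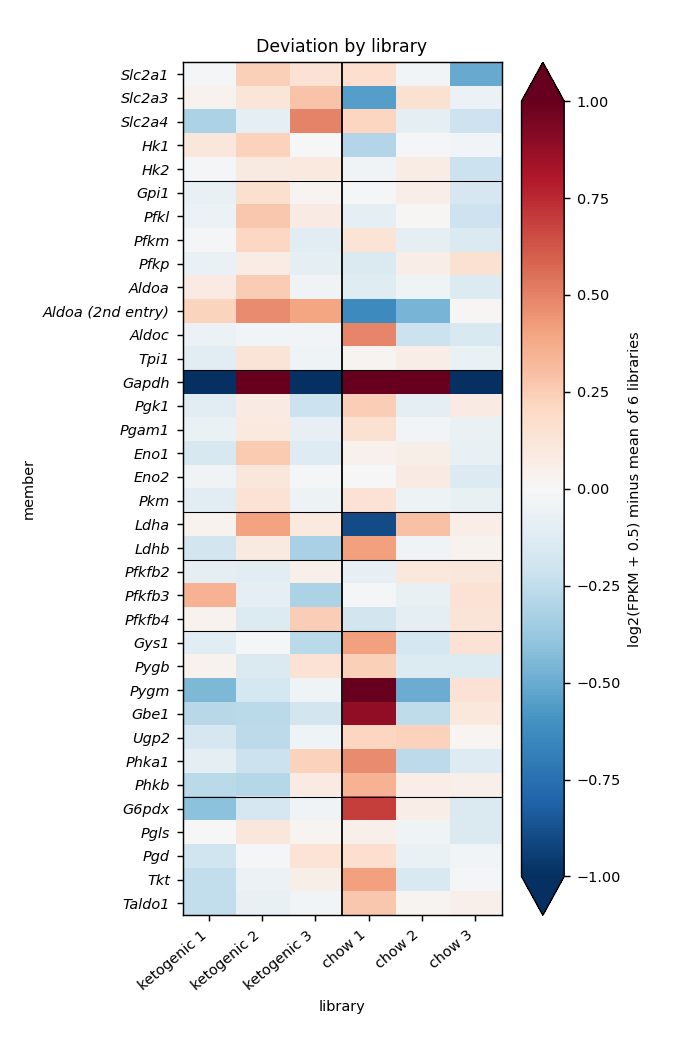
Deviation of log2(FPKM + 0.5) from the mean of the 6 libraries for each of the 36 entries (rows, in pathway order) in each library (columns, ketogenic left of chow), with colours limited to 1 on the log2 scale. Chow replicate 1 is high for Aldoc, Ldhb, Pygm, Gbe1, G6pdx and Tkt and low for Ldha and Slc2a3, and Gapdh, and Pygm in chow replicate 1, exceed the colour range.

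The highest values came mostly from chow replicate 1 and ketogenic replicate 2. Chow replicate 1 held the highest value of 14 of the 35 tested entries (40%, against 29.6% of all genes tested) and the lowest of 6 (17.1% against 21.9%). Of the glycogen genes 6 of 7 were highest there, and of the pentose phosphate genes 4 of 5. Ketogenic replicate 2 also held the highest value of 14 entries, against 2540 of the 16009 genes tested, among them 6 of 8 in upper and 4 of 6 in lower glycolysis. Leaving out chow replicate 1 turned the sign of 6 of the 35 entries, against 2689 of the 16009 genes tested. None of the 6 had passed the test. Without that library 18 entries were positive and 17 negative, with a median of 0.02. Of all genes tested 6971 were then positive and 9038 negative, with a median of -0.03. After adjustment for the thalamic markers 10 entries changed sign, against 5116 of the 16009 genes tested, and the median of the entries was 0.05.

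**Figure D4:**
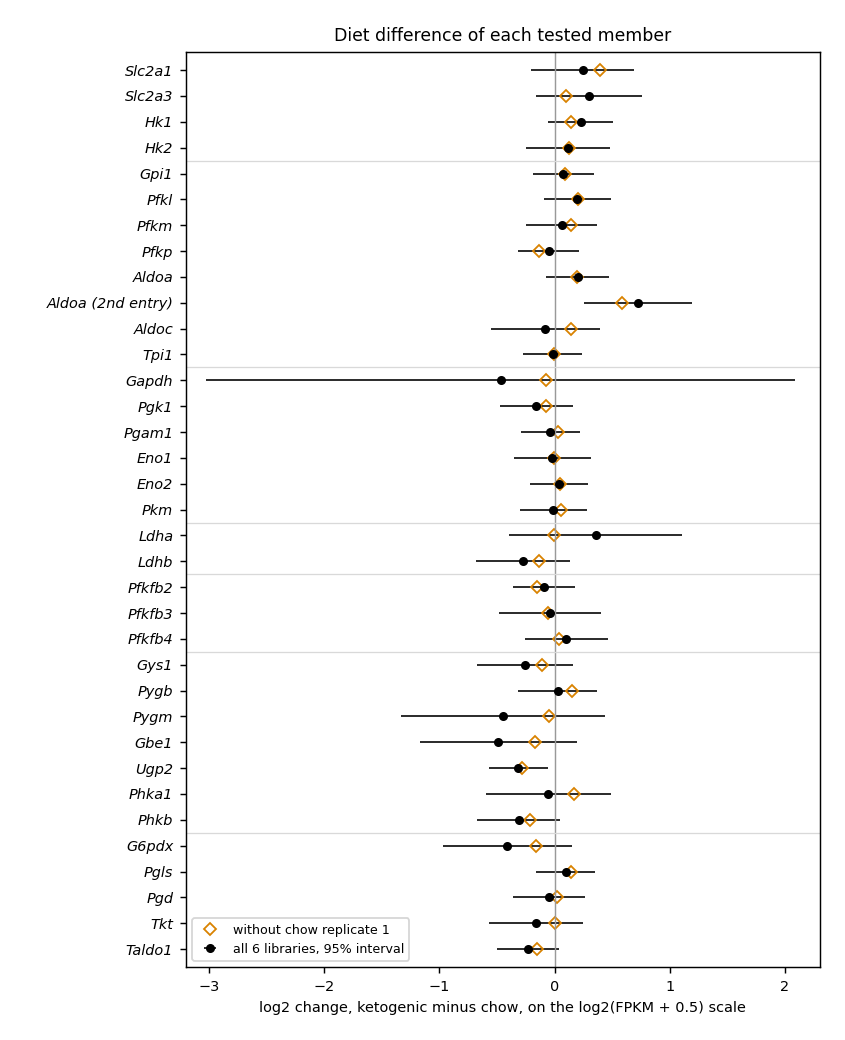
Log2 change of each of the 35 tested entries, ketogenic minus chow, with its 95% interval (black) and its value without chow replicate 1 (orange diamonds), in pathway order from the top. Only the intervals of the second Aldoa entry and Ugp2 lie off 0, and the value of Ldha, 0.36 over all libraries, is -0.0048 without that library.

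Shares of isozymes within a library do not depend on how libraries are scaled against each other, and 8 families were compared in this way. They were compared by the exact two-sided permutation test, whose smallest possible p with 3 against 3 libraries is 0.10, so that no share could pass. Ldha made up 21.4% ± 1.19 of the summed Ldha and Ldhb FPKM on the ketogenic diet and 16.0% ± 7.07 on chow (SD, n = 3 each, exact p = 0.30, adjusted p = 1 over the 8 families). The difference of 5.44 percentage points was 1.48 without chow replicate 1. Pygm made up 18.2% ± 2.44 of phosphorylase on the ketogenic diet and 24.2% ± 7.39 on chow (exact p = 0.30), a difference of -6.02 points that was -2.35 without chow replicate 1. Aldoc made up 34.8% ± 2.23 of aldolase on the ketogenic diet and 39.4% ± 6.82 on chow (exact p = 0.50), a difference of -4.63 points that was -0.76 without chow replicate 1. The neuronal transporter Slc2a3 made up 37.3% ± 2.12 of the pair with Slc2a1 on the ketogenic diet and 36.8% ± 9.66 on chow (exact p = 1). Its difference of 0.56 points was -4.86 without chow replicate 1, where its share of 25.9% was the lowest of the 6 libraries. Neuronal Eno2 made up 60.8% ± 2.64 of enolase on the ketogenic diet and 59.8% ± 0.697 on chow (exact p = 0.70). The shares of Hk2, Pfkm and Pfkfb3 differed by -0.05, 0.23 and -0.71 points (exact p = 0.90 each). In all 8 families the diets overlapped.

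**Figure D5:**
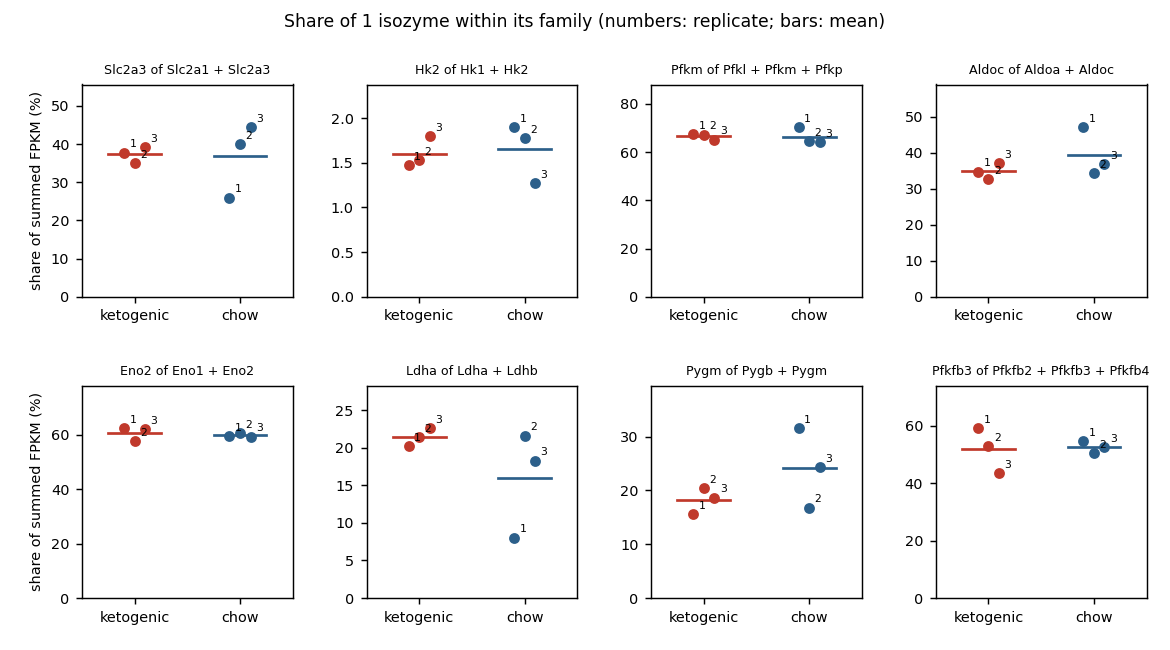
Share of 1 isozyme in the summed FPKM of its family (percent, axes from 0) in the 3 ketogenic (red, left) and 3 chow (blue, right) libraries, numbered by replicate, with bars at the group means. Chow replicate 1 lies outside the range of the other 5 libraries for Ldha (8.04%), Slc2a3 (25.9%), Aldoc (47.2%), Pygm (31.6%), Pfkm (70.5%) and Hk2 (1.90%).

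Further genes were read from 7 more lists, of which 76 genes were tested. Besides other genes of these pathways the lists held genes of gluconeogenesis and hypoxia and glucose-sensing regulators (15 tested). Hypoxia targets outside glycolysis (14 tested) were the last list. None passed at an adjusted p under 0.05 in limma, and 5 had an unadjusted p under 0.05, with 2 positive and 3 negative log2 changes, close to the 5.38% of all genes tested (2.06% higher and 3.32% lower). The other glucose and hexose transporters had 4 of 5 positive changes, among them the intracellular transporter Slc2a8 at 5.02 ± 0.398 FPKM in ketogenic-fed mice, against 4.21 ± 0.182 FPKM in chow-fed mice (SD, n = 3 each). The other enzymes of glycolysis and the pyruvate carriers had 4 of 12 positive and 8 negative. The carrier subunit Mpc1, which takes pyruvate into mitochondria, measured 8.56 ± 0.634 FPKM in ketogenic-fed mice, against 10.8 ± 1.62 FPKM in chow-fed mice. The muscle mutase Pgam2 had a log2 change of 0.47, with overlapping groups, and 0.24 without chow replicate 3.

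Among the other glycogen genes 9 of 20 changes were positive and 11 negative. Phkg1, a catalytic subunit of phosphorylase kinase, measured 3.14, 2.53 and 3.17 FPKM in the ketogenic libraries and 4.52, 3.76 and 3.63 FPKM in the chow libraries. Every ketogenic value lay below every chow value, with a log2 change of -0.37 that was -0.29 without chow replicate 1. The more abundant catalytic subunit gene Phkg2 averaged 7.73 FPKM in ketogenic-fed mice, against 7.83 FPKM in chow-fed mice. Its log2 change was -0.02, and that of the subunit gene Phka2 was 0.18. Ppp1r3g, which targets a phosphatase to glycogen, measured 3.45, 3.03 and 2.32 FPKM in ketogenic-fed mice, against 1.82, 2.13 and 2.19 FPKM in chow-fed mice, and its log2 change was 0.42, without overlap of the groups. The other pentose phosphate genes had 2 of 7 positive and 5 negative, with Rpe at -0.24 and the ribose phosphate kinase Prps1 at 0.27. Of the genes of gluconeogenesis 3 were tested, with Pcx at -0.23, which was -0.07 without chow replicate 1, and Pck2 at 0.12, which was 0.01 without chow replicate 2.

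Regulators of glycolytic genes were read as well. The glucose-induced gene Txnip, which restrains glucose uptake, measured 9.37, 6.98 and 10.8 FPKM in ketogenic-fed mice, against 6.43, 5.63 and 6.27 FPKM in chow-fed mice. Its log2 change was 0.51 ± 0.17 (SE), with an adjusted p of 0.752 in limma. The groups did not overlap. The list of hypoxia and glucose-sensing regulators had 8 of 15 positive changes, with the prolyl hydroxylase Egln2 at 0.22. Hypoxia targets outside glycolysis had 6 of 14 positive and 8 negative changes. Among them Vegfa, the angiogenic factor, measured 15.3, 17.1 and 16.1 FPKM in ketogenic-fed mice, against 27.0, 24.6 and 27.7 FPKM in chow-fed mice, without overlap. The log2 change of Vegfa was -0.69, with an unadjusted p of 0.000247 and an adjusted p of 0.659 in limma. It ran from -0.65 to -0.74 when single libraries were left out. Bnip3, a mitophagy receptor, measured 25.2, 26.8 and 22.2 FPKM in ketogenic-fed mice, against 29.5, 33.1 and 30.9 FPKM in chow-fed mice, and its log2 change was -0.33.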

How the data were processed

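The authors deposited FPKM per gene, made with HISAT2 and featureCounts of Subread on GRCm39 per the submitters' processing notes. Tool versions, annotation, strand setting and treatment of multiply aligned reads are not stated, so overlapping genes and copies can share reads. Per the labels' protocols, mRNA was purified with oligo(dT) beads. Identifiers were matched to symbols in a table of gene names (35175 of 36079 matched). Promoter windows are RefSeq's on GRCm38.p6, another build than the table's, and no coordinate was carried between builds.

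Genes averaging 0.5 FPKM or more over the 6 libraries entered limma 3.58.1 (R 4.3.3, eBayes with a trend) on log2(FPKM + 0.5), a scale that understates changes of low genes. Diet was the only term, and p-values were adjusted by Benjamini-Hochberg over 16009 genes. Errors are limma's SE or the SD of FPKM over libraries. Since nothing is said of housing or batches, p-values measure only the spread between these libraries, which may be partly technical. Whole reads were recovered from the steps of the FPKM values (100% whole at a tolerance of 0.001), each gene up to a factor common to the libraries. Copies of members were sought with blastn 2.17.0 in GENCODE M21 transcripts. No pair of libraries agreed within counting noise. The fit was tested on simulated data. The members and lists were chosen with earlier results of these data known. Named genes are all members and, from each further list, at most 2 with the smallest unadjusted p. Phkg2 and Phka2 were added beside Phkg1. The alternatives were other pseudocounts, filters and scalings, robust moderation, library weights, a replicate block, scores of thalamic, striatal and choroid plexus markers as covariates, voom, and leaving out each library.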

Additional observations from a re-analysis of the deposited data

How the results depend on the processing

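No member and no gene passed at an adjusted p under 0.05 in any of the 20 alternatives. The median log2 change of the members, -0.04, ran from -0.07 without ketogenic replicate 2 to 0.05 after adjustment for the thalamic markers. Of 699 values of members under the alternatives, 26 moved by more than their standard error, 15 of them after that adjustment and 6 without chow replicate 1, and the cause was not tested. At an unadjusted p under 0.05 there were 329 higher and 532 lower genes. The counts were 697 and 869 without a filter, where more genes were tested, 242 and 343 with a filter of 2 FPKM, 633 and 1254 with library weights, 253 and 255 after adjustment for the thalamic markers and 214 and 260 after that for the choroid plexus markers. They were 234 and 340 without ketogenic replicate 1, 217 and 306 without ketogenic replicate 2, 230 and 312 without chow replicate 1, 669 and 1176 without chow replicate 2, and 289 and 311 without chow replicate 3. Without Gapdh and the second Aldoa entry, an alternative chosen after seeing the data, the median was -0.04. With both Aldoa entries summed, chosen likewise, the share of Aldoc, ketogenic minus chow in percentage points, was -4.69. Deviations of same-numbered libraries correlated at -0.04, 0.48 and -0.21, and only those numbered 2 correlated best with their own number. The libraries also differed in markers of brain regions, so these correlations cannot show whether the replicate numbers pair the mice. With a replicate block the median stayed -0.04, and 359 genes were higher and 623 lower at an unadjusted p under 0.05. Depth limits the value of Slc2a4, which rests on 18 to 57 reads per library.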
